A study of Mus musculus with 6 samples.

Results

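The antisense RNA Kcnq1ot1 and 8 genes of its imprinted domain on mouse chromosome 7 were followed in brain RNA of 3 PLDP mice and 3 control mice. PLDP is a protease-treated decomposition product of porcine liver. The 9 genes were found among the 60354 features of the count files through their Ensembl identifiers in GENCODE M21. They comprised Kcnq1ot1, the inner genes Kcnq1, Cdkn1c, Phlda2 and Slc22a18, and the outer genes Cd81, Tssc4, Nap1l4 and Osbpl5. The domain was chosen by the counts of Kcnq1ot1, which differed between the diets in these same libraries, so its own difference is given as a description without a test. Its 8 neighbours are a chosen list of genes of the domain. Cars, Tnfrsf22 and Tnfrsf23, which lie between Nap1l4 and Osbpl5, are not among them and are given with the genes within 1 Mb. The differences of the neighbours were tested in a fit of all 18580 features that passed the filter on low counts. Of the 9 genes, 8 passed it. Phlda2 did not.

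All mice were male C57BL/6NCrSlc, an inbred strain. PLDP made up 20% of the food of the PLDP mice for 16 weeks. Control mice ate an AIN-93M food without it whose calories had been adjusted. The study kept 13 mice on each diet, of which control mice 2, 5 and 10 and PLDP mice 17, 22 and 26 were sequenced. RNA was taken from the whole brain after a series of behavioural tests, during which PLDP was not given. Totals were between 18797061 and 23938729 counts per mouse. Levels are given as CPM, counts per 1000000 of the scaled library. The neuronal markers Snap25, Syt1, Rbfox3, Slc17a7 and Gad1 together took between 4645 and 4840 CPM in each mouse, as brain tissue does. No female, brain region or single cell type was measured.

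An imprinted gene is expressed mainly from the copy inherited from 1 parent. In this domain Kcnq1ot1, a very long unspliced RNA, is made from the paternal chromosome, antisense to Kcnq1, from a control region inside an intron of that gene. On the maternal chromosome DNA methylation keeps this promoter silent. The paternal RNA stays in the nucleus, recruits histone-modifying complexes and silences the inner genes in cis in many tissues, while the outer genes are known to be silenced mainly in the placenta. Since both parental copies are identical in an inbred strain, the counts carry no information on which copy was read, and imprinting itself was not measured here.

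The windows of 3 promoters are shown: that of Kcnq1ot1, because it drives the RNA at the centre of the domain, and those of the inner genes Phlda2 and Slc22a18, because they lie among the genes it is known to silence. They were taken from RefSeq (build GRCm38.p6) and are written 5′ to 3′ on the strand of the gene, in lower case with the pentamer CCAAT in capitals. The Kcnq1ot1 window is chr7:143296498-143296797 on the minus strand, with 250 bases before and 50 bases after the start. For the coding genes the 250 bases before the start are given, chr7:143502525-143502774 on the minus strand for Phlda2 and chr7:143473539-143473788 on the plus strand for Slc22a18.
Kcnq1ot1: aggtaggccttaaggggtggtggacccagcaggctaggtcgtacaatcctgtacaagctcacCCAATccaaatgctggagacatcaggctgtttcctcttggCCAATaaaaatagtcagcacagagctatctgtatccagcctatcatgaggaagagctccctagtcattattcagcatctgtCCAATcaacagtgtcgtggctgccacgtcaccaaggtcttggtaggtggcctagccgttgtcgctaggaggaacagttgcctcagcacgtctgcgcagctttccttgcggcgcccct
Phlda2: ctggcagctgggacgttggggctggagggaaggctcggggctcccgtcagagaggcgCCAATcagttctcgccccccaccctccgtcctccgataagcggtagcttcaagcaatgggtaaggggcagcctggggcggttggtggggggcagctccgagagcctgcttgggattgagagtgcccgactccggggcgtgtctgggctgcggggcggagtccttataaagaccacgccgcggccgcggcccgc
Slc22a18: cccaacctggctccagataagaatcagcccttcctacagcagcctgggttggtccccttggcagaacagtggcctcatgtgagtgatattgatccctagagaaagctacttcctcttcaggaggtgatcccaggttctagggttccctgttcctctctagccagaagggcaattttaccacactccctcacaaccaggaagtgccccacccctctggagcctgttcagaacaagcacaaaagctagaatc
The Kcnq1ot1 window held CCAAT 3 times, all on the strand of the RNA, with the first base 188, 148 and 67 bases before the start. CCAAT boxes are bound by the factor NF-Y in many promoters. Searching both strands (CCAAT or its complement ATTGG), 37.4% of the 32851 windows of 300 bases in the table held at least 1 match and 3.37% held 3 or more. Phlda2 had 1 match, 193 bases before its start, and Slc22a18 had none. Over the whole window of 300 bases, Kcnq1ot1 had 9 CpG dinucleotides, against a median of 7 per window, whereas Phlda2 had 26 and Slc22a18 had 2. For Phlda2 and Slc22a18 these counts include the 50 bases after the start, which are not shown. Windows were found for 6 of the 9 genes. Kcnq1, Cdkn1c and Nap1l4 had none in the table. A match is a description of the letters and not evidence of binding.

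Kcnq1ot1 (ENSMUSG00000101609, chr7:143203458-143296549, minus strand, GRCm38) is annotated as a single exon of 93.092 kb. It lies within the Kcnq1 gene and covers 29.0% of its span. The control mice 2, 5 and 10 had 645, 660 and 702 counts on it, and the PLDP mice 17, 22 and 26 had 857, 1013 and 927. Scaled to library size, the levels were 31.0, 29.9 and 34.0 CPM in the control mice and 39.8, 42.5 and 49.5 CPM in the PLDP mice. Every PLDP mouse was above every control mouse, with mouse 26 highest. This separation is part of how the domain was chosen, and 7.29% of all features tested showed it. The mean was 31.7 ± 2.13 CPM in control mice and 44.0 ± 5.02 CPM in PLDP mice (SD, n = 3 each), a level 38.8% higher. The log2 fold change (PLDP over control) was 0.47 with an SE of 0.08. It ranged from 0.38 to 0.53 when each mouse was left out in turn. In all, 457 of the 18580 features had a larger log2 fold change.

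**Figure D1:**
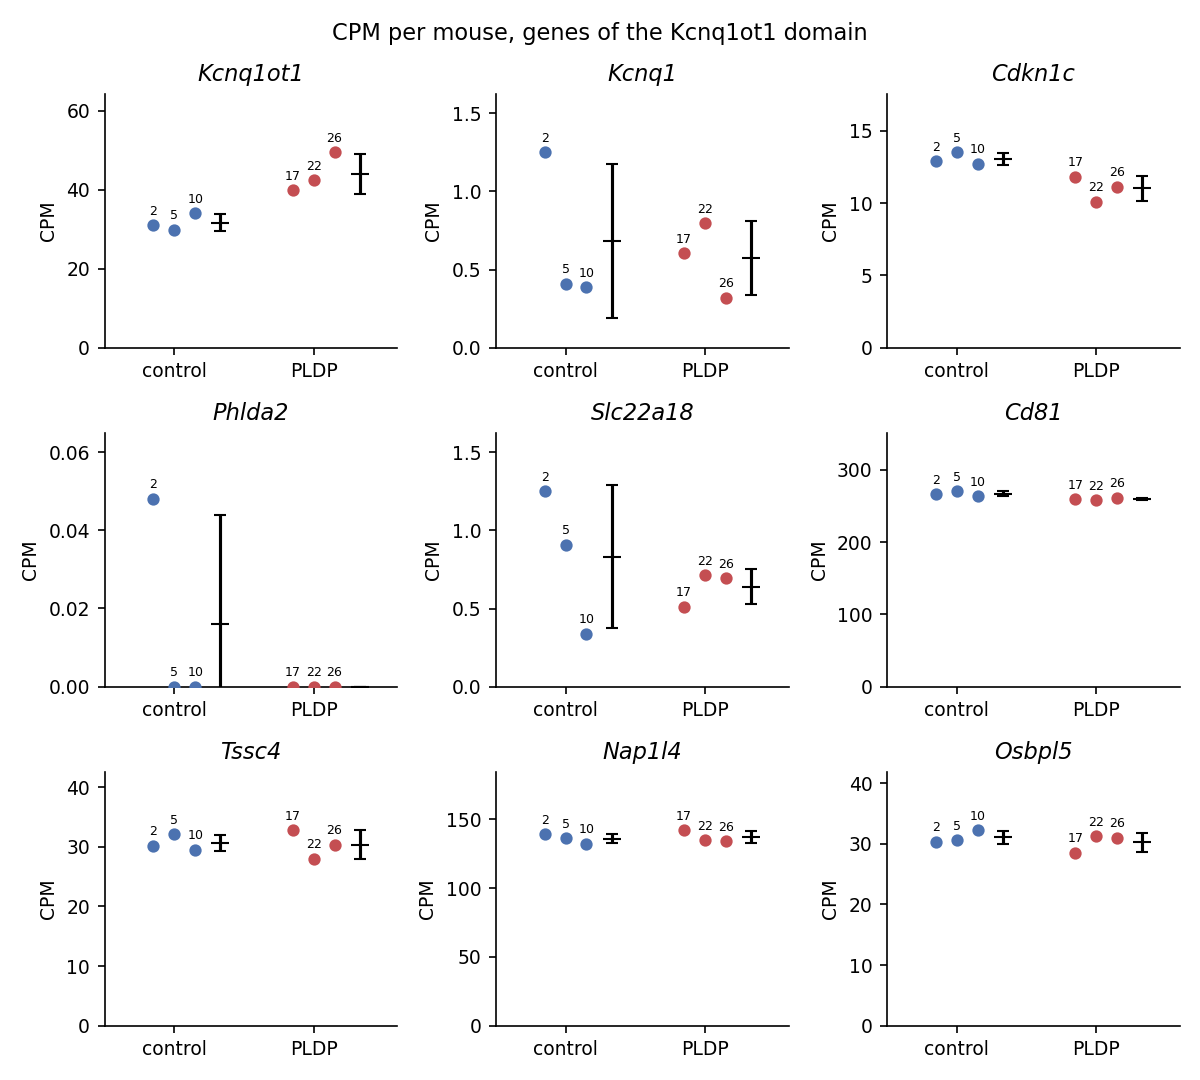
CPM of each of the 9 genes (vertical axes, each from 0, with its own scale) in the 3 control mice and the 3 PLDP mice; points are single mice labelled by number, and bars give the mean ± SD. Kcnq1ot1 lies between 29.9 and 34.0 CPM in control mice and between 39.8 and 49.5 CPM in PLDP mice, Cdkn1c is lower in every PLDP mouse, and the other genes overlap or, for Cd81, are separated by a small difference.

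The question posed by the domain is whether genes silenced by Kcnq1ot1 move opposite to it. Of the 7 neighbours tested, 6 had a log2 fold change below 0, against 50.2% of all features tested. The median of the 7 was -0.04, and that over all features was -0.0006. The 6 comprised 3 inner genes and 3 outer genes, and the median of the outer genes was -0.03. Leaving out each mouse in turn gave between 4 and 7 neighbours below 0. Of these 7 neighbours, 1 was lower at an unadjusted p under 0.05 in edgeR's quasi-likelihood test and none was higher, where 3.69% of all features were called lower and 4.91% higher (8.60% in either direction). With Benjamini-Hochberg adjustment over all features 0.0323% were called in edgeR, none of them a neighbour. The smallest adjusted p among the neighbours was 0.448. In whole-brain RNA a lower level can come from fewer cells of a type or from less RNA per cell, and these cannot be told apart.

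Cdkn1c was the neighbour that passed the unadjusted threshold. It encodes p57, an inhibitor of cyclin-dependent kinases that holds cells out of the cell cycle, and is expressed from the maternal copy. The gene (ENSMUSG00000037664, chr7:143458339-143461050, minus strand) starts 165 kb from the start of Kcnq1ot1. Counts were 268, 298 and 262 in control mice 2, 5 and 10, and 254, 241 and 208 in PLDP mice 17, 22 and 26. In CPM the levels were 12.9, 13.5 and 12.7 in control mice and 11.8, 10.1 and 11.1 in PLDP mice. The highest PLDP mouse was still under the lowest control mouse, an order seen for 6.90% of all features tested, and mouse 22 was lowest. The mean fell from 13.0 ± 0.43 CPM to 11.0 ± 0.86 CPM, a change of -15.6%, and the log2 fold change was -0.25 with an SE of 0.09 and a 95% interval of -0.44 to -0.05. The edgeR test gave an unadjusted p of 0.0156 and an adjusted p of 0.448, so the difference did not hold after correction over all features. The call was lost without PLDP mouse 22 (log2 fold change -0.19, with an unadjusted edgeR p of 0.0799) and without control mouse 5 (-0.22, with an unadjusted edgeR p of 0.0546). Of the 2039 exon bases of Cdkn1c, 625 lie opposite to exons of the antisense gene Gm44732, which had between 0 and 5 counts per mouse.

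Kcnq1 encodes the pore subunit of a voltage-gated potassium channel of heart and epithelia and contains Kcnq1ot1 in antisense. Its level was close to the limit of detection in brain. Counts on Kcnq1 (ENSMUSG00000009545, chr7:143106362-143427042, plus strand) were 26, 9 and 8 in control mice and 13, 19 and 6 in PLDP mice. The levels of 1.25, 0.41 and 0.39 CPM in control mice and 0.60, 0.80 and 0.32 CPM in PLDP mice overlapped. With a log2 fold change of -0.20, an SE of 0.46 and a 95% interval of -1.17 to 0.76 (edgeR adjusted p = 0.945), changes in either direction were compatible with the counts. The sign rested on single mice, since the log2 fold change was 0.55 without control mouse 2 and 0.051 without PLDP mouse 26. The exons of Kcnq1 and Kcnq1ot1 share 121 bases in 1 exon block, on which the read density of Kcnq1ot1 would place between 0.84 and 1.32 counts per mouse. The sources used here do not say whether counting used strand. If it did not, reads from Kcnq1 introns cannot be told apart from Kcnq1ot1 reads.

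Slc22a18, a transporter-like membrane protein, and Phlda2, a pleckstrin homology domain protein that restrains placental growth, lie beyond Cdkn1c. Slc22a18 (ENSMUSG00000000154, chr7:143473736-143499334, plus strand) had 26, 20 and 7 counts in control mice and 11, 17 and 13 in PLDP mice. These are 1.25, 0.91 and 0.34 CPM against 0.51, 0.71 and 0.69 CPM, so the PLDP mice fell within the range of the control mice. The log2 fold change of -0.38 had an SE of 0.39 and a 95% interval of -1.21 to 0.45 (edgeR adjusted p = 0.839). A single control mouse moved this value to either side: it was -0.75 without control mouse 10, where it passed the threshold with an unadjusted edgeR p of 0.0464, and 0.019 without control mouse 2. Phlda2 (ENSMUSG00000010760, chr7:143501545-143503150, minus strand) had 1 count in control mouse 2 and 0 in the other 5 mice, so that no difference was detectable at this depth. The median log2 fold change of the 3 inner genes tested was -0.25, but it was 0.019 without control mouse 2.

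The outer genes were abundant and differed little. Cd81, a tetraspanin of the cell surface, is at chr7:143052739-143067934 (ENSMUSG00000037706, plus strand). It was measured at 266.3, 270.4 and 263.2 CPM in control mice and 259.6, 257.9 and 261.6 CPM in PLDP mice. The diets did not overlap, as was so for 14.2% of all features tested, but the means were 266.6 ± 3.60 CPM and 259.7 ± 1.84 CPM. The log2 fold change was -0.04 with a 95% interval of -0.12 to 0.04 (edgeR adjusted p = 0.823). Cd81 is thus a case in which separation of 3 mice from 3 was not accompanied by a call.

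Tssc4, a protein of splicing complexes, is at chr7:143069249-143071093 (ENSMUSG00000045752, plus strand). It was measured at 30.2, 32.1 and 29.5 CPM in control mice and 32.8, 28.0 and 30.3 CPM in PLDP mice. The PLDP mice spanned the whole range of the control mice, and the log2 fold change was -0.01 (95% interval -0.16 to 0.13, edgeR adjusted p = 0.979). Nap1l4, a histone chaperone of the nucleosome assembly protein family, is at chr7:143513579-143549106 (ENSMUSG00000059119, minus strand). Its levels were 139.1, 136.5 and 132.4 CPM in control mice and 142.2, 135.0 and 134.1 CPM in PLDP mice, with a log2 fold change of 0.01 (95% interval -0.08 to 0.10, edgeR adjusted p = 0.966). Osbpl5, which transfers lipids between membranes, is at chr7:143688762-143756985 (ENSMUSG00000037606, minus strand). Its levels were 30.4, 30.6 and 32.3 CPM in control mice and 28.5, 31.2 and 31.0 CPM in PLDP mice. The log2 fold change was -0.04 (95% interval -0.17 to 0.09, edgeR adjusted p = 0.913).

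**Figure D2:**
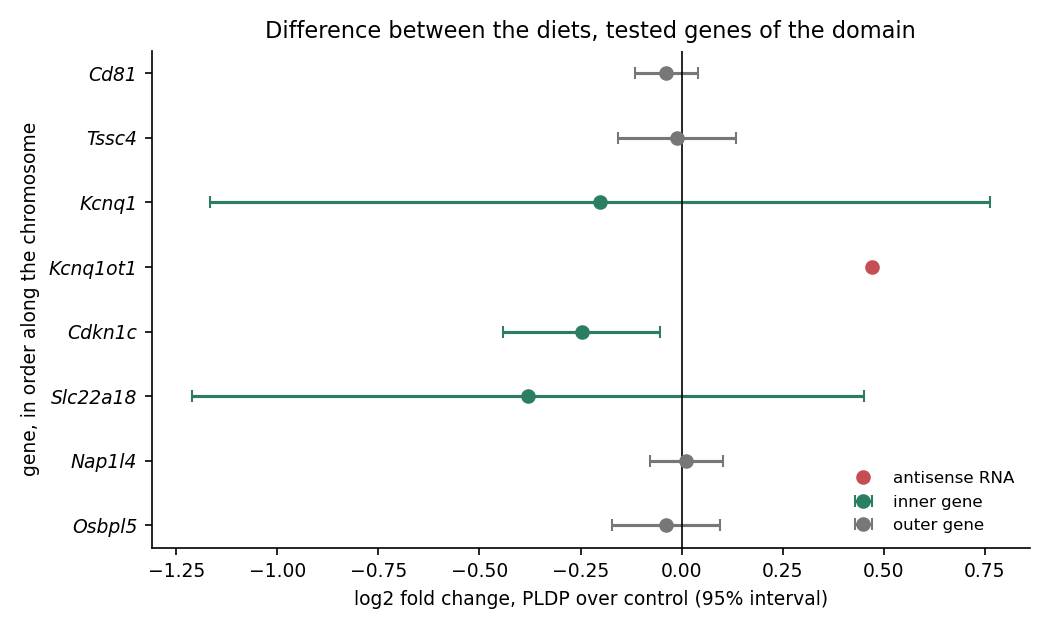
Log2 fold change of PLDP over control mice (horizontal axis) for the 8 tested genes in their order along the chromosome; points are edgeR estimates and bars 95% intervals, with none drawn for Kcnq1ot1. Kcnq1ot1 is at 0.47, Cdkn1c at -0.25 with an interval below 0, and the 4 outer genes lie between -0.04 and 0.01.

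Levels per kb of exon differed widely within the domain. Cd81 was highest with a mean of 91.4 CPM per kb over the 6 mice, followed by Nap1l4 with 44.1, Tssc4 with 16.5, Osbpl5 with 6.24 and Cdkn1c with 5.90. The ranges of Osbpl5 and Cdkn1c over the mice overlapped, so their order is not resolved. Slc22a18 had 0.43 and Kcnq1ot1 0.41 CPM per kb, also with overlapping ranges. Kcnq1 followed with 0.15 and Phlda2 with 0.0072. Kcnq1ot1 therefore combined many counts, 4804 over the 6 mice, with a low coverage per kb, because its annotated exon is 93.092 kb long. How much of that length the RNA covers in brain cannot be read from counts per gene.

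**Figure D3:**
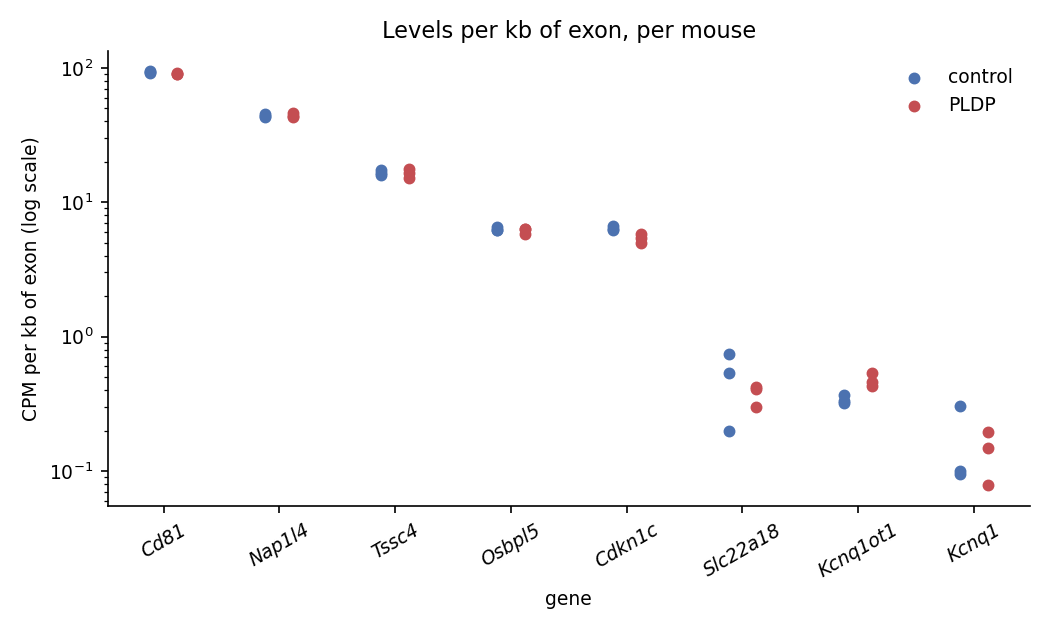
CPM per kb of exon on a log scale (vertical axis) for the genes of the domain with counts in every mouse, ordered by level; each point is 1 mouse, blue for control and red for PLDP. Levels run from about 90 CPM per kb for Cd81 down to 0.15 on average for Kcnq1, with Kcnq1ot1 among the lowest.

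The neighbourhood was then taken by distance alone. Within 1 Mb of Kcnq1ot1 the files list 84 features, 54 of which had a count and 23 of which were tested besides Kcnq1ot1. Of these 23, 14 had a log2 fold change below 0, 2 were called higher and 1, Cdkn1c, was called lower. That is 13.0% called, against 8.60% over all features. Tnfrsf23, a decoy receptor for the ligand TRAIL, was measured at 0.67, 1.04 and 0.63 CPM in control mice and 1.21, 1.13 and 1.28 CPM in PLDP mice (log2 fold change 0.61, SE 0.28, edgeR adjusted p = 0.567). Its unadjusted edgeR p of 0.0459 was just past the threshold. It was not called by DESeq2, and leaving out a mouse ended its call in 5 of 6 cases, with log2 fold changes that stayed at 0.62 by DESeq2 and between 0.48 and 0.88 without a mouse. Shank2, a scaffold protein of excitatory synapses that starts 705 kb away, was at 125.0, 123.5 and 130.4 CPM in control mice and 131.3, 151.4 and 155.1 CPM in PLDP mice (log2 fold change 0.21, SE 0.06, edgeR adjusted p = 0.261). Shank2 kept its call under every alternative run.

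From a list of 17 further genes of the domain and its flanks, 9 were tested, of which Tnfrsf23 was called higher and none lower, a count near the 8.60% of all features. The others tested include genes of tRNA charging, sterol synthesis, dopamine synthesis and growth control. Cars, a cysteinyl-tRNA synthetase gene, had a log2 fold change of 0.12 (edgeR adjusted p = 0.608), and the imprinted growth factor Igf2 one of 0.38 (edgeR adjusted p = 0.659). Tyrosine hydroxylase (Th), the rate-limiting enzyme of dopamine synthesis, was at -0.07, Dhcr7 of cholesterol synthesis at -0.03, Tnfrsf22 at -0.24, Nadsyn1 of NAD synthesis at 0.05, the mitochondrial ribosomal gene Mrpl23 at 0.06 and the leukocyte gene Lsp1 at -0.01. None of these 8 differences passed the unadjusted threshold, though Cars did so without PLDP mouse 22 (0.15). Ascl2, H19, Ins2, Tnfrsf26, Tnni2, Tnnt3, Trpm5 and Tspan32 had too few counts to be tested.

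**Figure D4:**
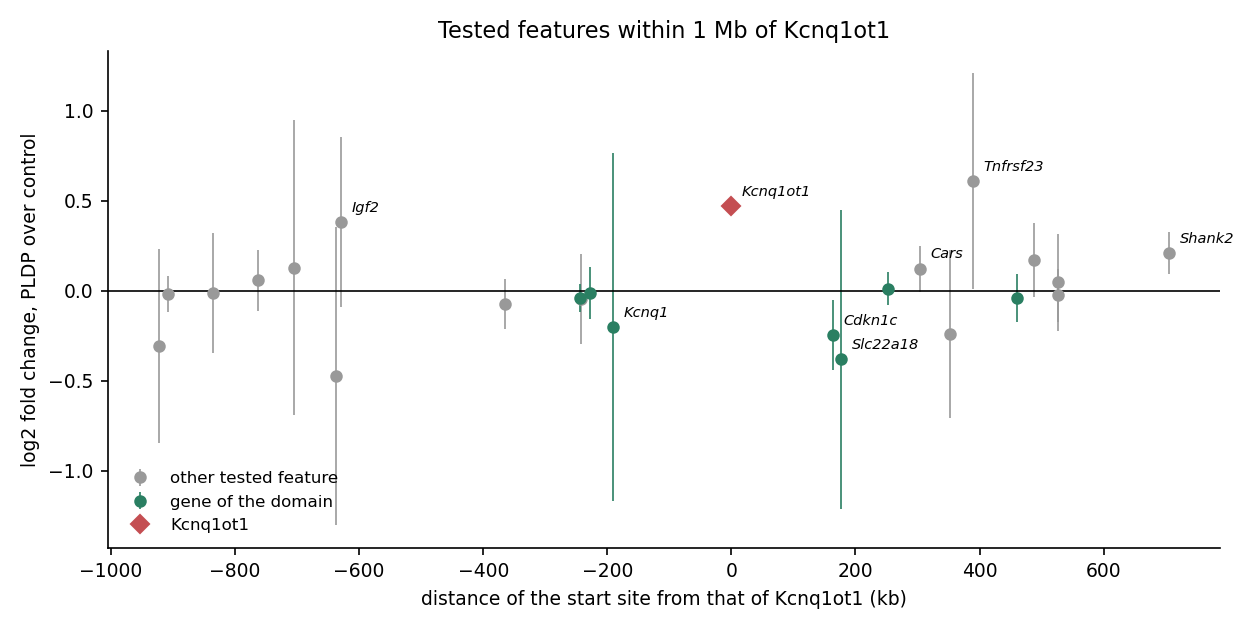
Log2 fold change of PLDP over control mice (vertical axis) against the distance of each gene's start from that of Kcnq1ot1 in kb (horizontal axis) for the 24 tested features within 1 Mb; bars are 95% intervals (none for Kcnq1ot1), green marks genes of the domain and grey other features. Cdkn1c at -0.25 is the feature below 0 whose interval does not reach 0, most others have intervals that span 0, and the features called higher, Tnfrsf23 at 0.61 and Shank2 at 0.21, start farther away.

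The factors known to act with or on Kcnq1ot1 were examined next. The list held 15 genes, all tested: Polycomb subunits (Ezh2, Eed, Suz12, Ring1, Rnf2, Cbx7), the histone H3K9 methyltransferases Ehmt1 and Ehmt2, the maintenance methylation factors Dnmt1 and Uhrf1, and Hnrnpk, Smchd1, Ctcf, Zfp57 and Trim28. By edgeR at the unadjusted threshold 0 of the 15 were called, as was so by DESeq2 and limma voom, beside 8.60% of all features by edgeR, and their median log2 fold change was -0.007. Hnrnpk, the most abundant, was at 303.3 ± 5.83 CPM in control mice and 294.5 ± 8.67 CPM in PLDP mice. Ezh2, the catalytic Polycomb subunit, was at 6.64 ± 0.42 CPM and 6.00 ± 0.06 CPM. Its log2 fold change was -0.14 (edgeR adjusted p = 0.773).

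Imprinted genes of other domains were also read. Of 22 genes expressed from the paternal copy, 20 were tested, none was called by edgeR, DESeq2 or limma voom beside 8.60% of all features by edgeR, and the median log2 fold change was -0.0009. Other settings changed this count: 2 were called higher with no filter on low counts, 3 higher without control mouse 10, 2 higher without PLDP mouse 17 (median 0.069), 1 higher without PLDP mouse 22 and 1 lower without PLDP mouse 26. Nap1l5, at 475.5 ± 13.5 CPM in control mice and 453.7 ± 13.4 CPM in PLDP mice, was the most abundant. Airn, the antisense RNA that silences the Igf2r domain in cis and is known for a mode of action like that of Kcnq1ot1, was at 4.25 ± 0.35 CPM and 4.14 ± 0.04 CPM, with a log2 fold change of -0.04 (edgeR adjusted p = 0.967). Of 13 genes expressed from the maternal copy, 12 were tested and 2 were called higher, where 4.91% of all features were. Both are long RNAs of the Dlk1-Dio3 domain. This count was 3 higher and 1 lower without PLDP mouse 26, and 3 higher without control mouse 5, each with 13 tested. Meg3 rose from 2993 ± 60.4 CPM to 3321 ± 211 CPM (log2 fold change 0.15, edgeR adjusted p = 0.248), and Mirg rose from 32.1 ± 1.99 CPM to 40.6 ± 2.56 CPM (0.34, edgeR adjusted p = 0.0785). For both, every PLDP mouse was above every control mouse, as was so for 7.29% of all features tested. Rian, of the same list and domain, overlapped between the diets and was not called (0.07, edgeR adjusted p = 0.684).

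Genes related by function to the inner genes were also read as 2 lists. Potassium channel genes of the Kcnq family and its Kcne partners gave 6 tested genes of 9, none called by edgeR, DESeq2 or limma voom beside 8.60% of all features by edgeR, with a median of -0.05. There was 1 called higher without PLDP mouse 17 and 1 lower without PLDP mouse 22. Of 11 genes of the CIP/KIP inhibitors and the cyclins and kinases they bind, 10 were tested and 2 were called higher, again beside 4.91% of all features, with a median of -0.04. Cdkn1a, which encodes p21, a relative of p57, rose from 25.1 ± 3.22 CPM to 31.3 ± 3.15 CPM (log2 fold change 0.32, edgeR adjusted p = 0.294), opposite to Cdkn1c. Cyclin D2 (Ccnd2) rose from 46.7 ± 1.49 CPM to 53.4 ± 6.34 CPM (0.19, edgeR adjusted p = 0.448). The call of Ccnd2 was lost without control mouse 2 (0.16), PLDP mouse 22 (0.15) or PLDP mouse 26 (0.13), whereas that of Cdkn1a was kept without any 1 mouse. In the same list 1 gene was called lower without PLDP mouse 22, without control mouse 5 or with no filter on low counts. The third inhibitor, Cdkn1b (p27), the most abundant of the list, was at 63.7 ± 4.59 CPM and 58.8 ± 1.51 CPM and was not called (-0.11, edgeR adjusted p = 0.601).

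Other groups of RNA also held members called in the direction of Kcnq1ot1. Long nuclear RNAs gave 10 tested of 11, of which 4 were called higher by edgeR (3 by DESeq2) and none lower, against 4.91% and 3.69% of all features, with a median log2 fold change of 0.08. Malat1, a nuclear speckle RNA, rose from 1057 ± 49.0 CPM to 1293 ± 58.2 CPM (0.29, edgeR adjusted p = 0.0318), and Snhg11 from 1670 ± 71.2 CPM to 1760 ± 31.1 CPM (0.08, edgeR adjusted p = 0.565). Snhg11 lost its call by DESeq2, with library size only, and without control mouse 2 (0.041), control mouse 5 (0.084), PLDP mouse 22 (0.085) or PLDP mouse 26 (0.061), while Malat1 kept it under every alternative run. Meg3 and Mirg, given above, complete the 4, and Neat1, the RNA of paraspeckles, was not called (-0.02, edgeR adjusted p = 0.953). Gene models of the class TEC, which GENCODE keeps apart until experiments bear them out and which are mostly unspliced, were read likewise. Among 379 tested, 11.3% were called higher and 0.792% lower (4.91% and 3.69% over all features), with a median log2 fold change of 0.14. Their summed level was 726.6, 753.1 and 748.3 CPM in control mice and 795.2, 805.1 and 877.6 CPM in PLDP mice. PLDP mouse 26 was highest for this sum and for Kcnq1ot1. Of 468 antisense RNAs tested, the class to which Kcnq1ot1 belongs, 1.28% were called higher and 2.99% lower, with a median of -0.02. Of 1293 processed pseudogenes tested, 8.97% were called higher and 2.63% lower. Of 659 numbered features without an Ensembl identifier, 7.44% were called higher and 3.03% lower, and of 67 unprocessed pseudogenes 7.46% and 1.49%. RNAs from bidirectional promoters (84 tested) had 1.19% higher and 7.14% lower, long intergenic RNAs 2.94% and 2.15%, and protein-coding genes 4.46% and 3.97%. The part of these groups in the difference of Kcnq1ot1 was not tested.

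Markers of the choroid plexus, the epithelium that makes cerebrospinal fluid, were read beside Cdkn1c. All 10 were tested, all 10 had a log2 fold change below 0 and 3 were called lower by edgeR (2 by DESeq2 and by limma voom), where 3.69% of all features were called lower, with a median of -0.20. Transthyretin (Ttr) fell from 708.4 ± 25.9 CPM to 607.4 ± 67.7 CPM (-0.22, edgeR adjusted p = 0.26), Enpp2 from 509.5 ± 16.1 CPM to 427.7 ± 55.1 CPM (-0.25, edgeR adjusted p = 0.223) and Folr1 from 5.85 ± 0.84 CPM to 4.71 ± 0.66 CPM (-0.31, edgeR adjusted p = 0.572). The call of Folr1 was lost by DESeq2 and limma voom and without control mouse 2 (-0.24), control mouse 5 (-0.27) or PLDP mouse 17 (-0.20). The summed level of the 10 markers was 1264, 1347 and 1303 CPM in control mice 2, 5 and 10, and 971.1, 1244 and 1125 CPM in PLDP mice 17, 22 and 26. Mouse 17 was lowest for these markers and mouse 22 for Cdkn1c. Without PLDP mouse 17 the median of the markers was -0.07 with 2 called, and the log2 fold change of Cdkn1c was -0.30 (unadjusted edgeR p of 0.00607). Without PLDP mouse 22 the median was -0.35 with 7 called, and Cdkn1c was at -0.19. Whether choroid plexus RNA had a part in the result for Cdkn1c was not tested.

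Markers of other cell types were called in both directions, beside 4.91% of all features called higher and 3.69% lower. Of 8 endothelial and mural markers 3 were called higher (Pecam1 at 0.25, Flt1 at 0.14 and Rgs5 at 0.11 on the log2 scale). Another 3 had a value below 0 (Slco1a4 at -0.14, Pdgfrb at -0.06 and Vtn at -0.05, none called). All 6 oligodendrocyte markers were below 0 (-0.25 to -0.01) and 2 were called lower, among them Mbp at -0.12. Without control mouse 5, 1 endothelial or mural marker was called higher and 0 oligodendrocyte markers lower. Without PLDP mouse 17 the endothelial and mural markers had 3 called higher and 2 lower. P2ry12 of microglia (-0.17) and Aqp4 of astrocytes (-0.11) were called lower, each as 1 of 6. All 6 microglia markers were below 0 (median -0.02), whereas 3 astrocyte markers were above 0 and 3 below (median -0.006). The call in microglia was lost by DESeq2 and without PLDP mouse 22 or control mouse 5, and that in astrocytes without PLDP mouse 26 or control mouse 10. In astrocytes 1 marker was called higher without PLDP mouse 17, with upper-quartile factors and with no filter on low counts, where 2 were lower. None of 5 neuronal, 8 meningeal and 5 red blood cell markers was called by edgeR, with 1 neuronal marker called by limma voom. All 5 red blood cell markers were below 0 (median -0.07), and without control mouse 5 their median was -0.28 with 4 called lower, beside 2 meningeal markers. Without control mouse 2 the red blood cell median was 0.093, and without PLDP mouse 26 it was 0.0002. Without PLDP mouse 26, 1 neuronal marker was called higher and 1 meningeal marker lower. Of 6 pituitary hormone genes, Pomc passed the filter, with a log2 fold change of 0.004. The part of these cell types in the results of the domain was not tested.

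**Figure D5:**
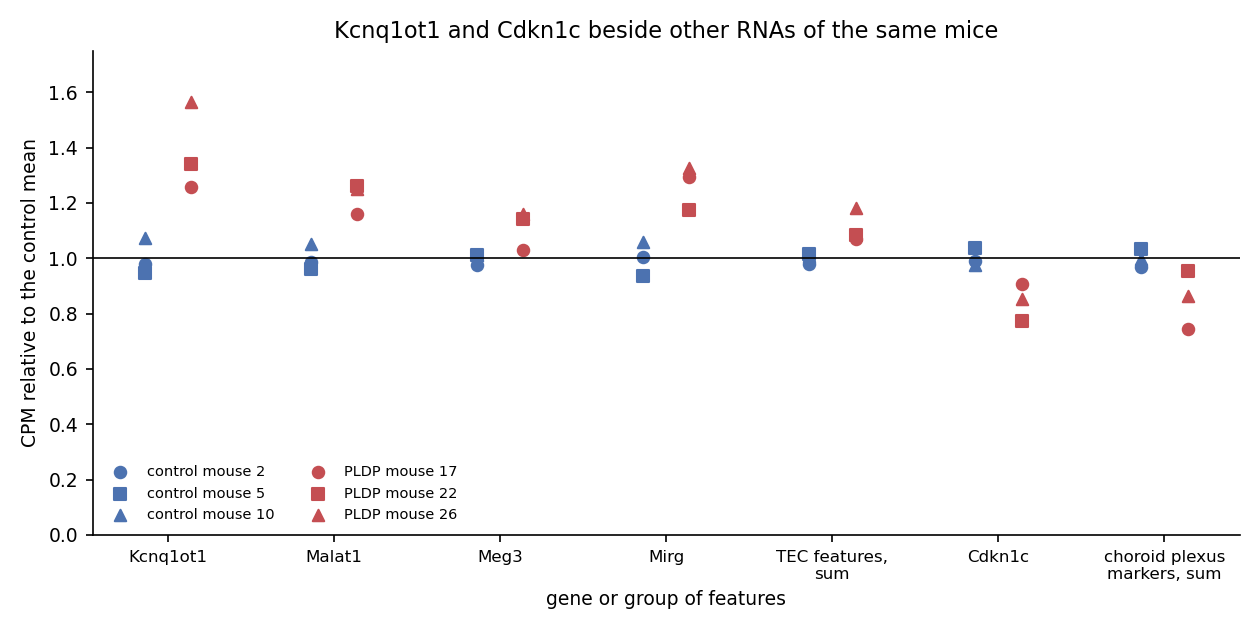
CPM relative to the mean of the control mice (vertical axis, from 0) for Kcnq1ot1, Malat1, Meg3, Mirg, the summed TEC features, Cdkn1c and the summed choroid plexus markers; colours mark the diet and shapes the mouse. PLDP mouse 26 is highest for Kcnq1ot1 and for the TEC sum (877.6 CPM), PLDP mouse 22 is lowest for Cdkn1c (10.1 CPM), and PLDP mouse 17 is lowest for the choroid plexus sum (971.1 CPM).

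Genes whose pattern over the 6 mice lay closest to that of Kcnq1ot1 were ranked by the root mean square difference in log2 CPM, each gene taken relative to its own mean, among 12600 features with a mean of at least 5 CPM. The median difference over these features was 0.27. The 5 closest genes with a name other than a model or clone name were Serinc2, a membrane protein of the serine incorporator family, at 0.048, the TWEAK receptor gene Tnfrsf12a at 0.065, the neurotrophin gene Bdnf at 0.073, the MAP kinase phosphatase gene Dusp4 at 0.080 and the thrombomodulin gene Thbd at 0.088. Bdnf was at 20.9, 20.2 and 21.1 CPM in control mice and 25.3, 25.6 and 29.2 CPM in PLDP mice, with mouse 26 highest as for Kcnq1ot1. Mirg ranked 15 and Malat1 20, whereas Cdkn1c ranked 12354 with a difference of 0.39. This likeness rests on 6 mice in 2 groups and was chosen with the levels of Kcnq1ot1, so it carries no test.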

How the data were processed

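RNA-seq of brain polyadenylated RNA (a stranded kit) from 6 mice was used. The authors deposited 1 table per mouse of whole-number read counts per feature, without normalization. The submitters' processing notes list cutadapt 2.9, HISAT2 2.2.0, featureCounts 2.6.0 and DESeq2 1.6.3 without settings, so the annotation, the use of strand and the treatment of reads shared between genes are not given in the sources used here.

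The labels of the mice gave their diets. Counts were filtered with filterByExpr (minimum count 10, minimum total 15), scaled by TMM and tested with edgeR 4.0.16 in R 4.3.3 (glmQLFit, glmQLFTest, diet as the only term), and a feature was called at an unadjusted p under 0.05, with Benjamini-Hochberg adjustment over all 18580 features tested. CPM (counts per 1000000) were computed from the deposited counts with the TMM-scaled library sizes. Symbols and coordinates came from GENCODE M21 (54777 of 55034 identifiers found), and 5320 numbered features without an Ensembl identifier were kept in the fit. Levels between genes were compared per kb of the union of exons. Depth, between 18797061 and 23938729 counts per mouse, leaves Kcnq1, Slc22a18 and Phlda2 at 26 counts or fewer in every mouse. Members and gene lists were chosen with earlier results of these data known. The text names the 9 genes of the domain, features within 1 Mb that were called or belong to the list of the domain and its flanks, up to 3 called genes and the most abundant gene of other lists, and the 5 genes closest in pattern to Kcnq1ot1. A few more, such as Airn, Ezh2 and Neat1, were added after their values were seen. Not every gene covered by this rule is reported here. The alternatives were other scaling factors, other filters, DESeq2 1.42.0, limma voom (limma 3.58.1) and leaving out each mouse. Python 3.11.15, pandas 2.3.3 and, for plots, matplotlib 3.10.9 were used.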

Additional observations from a re-analysis of the deposited data

How the results depend on the processing

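No paired analysis was possible because the mouse numbers of the diets are not shared. Cdkn1c kept its direction under all 13 alternatives, between -0.25 and -0.24 on the log2 scale under other scalings, filters and tools. Its call was lost without PLDP mouse 22 or control mouse 5. Kcnq1ot1 was between 0.46 and 0.47 under the same scalings, filters and tools. Its difference in these libraries chose the domain, so this range is a description and not support. Over all features, DESeq2 called 564 higher and 362 lower, against 913 and 685 by edgeR, while 1314 were higher and 1046 lower with no filter on low counts. Leaving out each mouse gave 640 to 1293 called higher and 493 to 1072 lower, 0 to 2 of the neighbours called, and within 1 Mb 1 to 2 higher and 0 to 2 lower. DESeq2 called 1 higher within 1 Mb. Leaving out a mouse turned the sign of 5 neighbours, though not of Cd81 or Cdkn1c: log2 fold changes ranged from -0.52 to 0.55 for Kcnq1, from -0.75 to 0.019 for Slc22a18, from -0.073 to 0.044 for Tssc4, from -0.015 to 0.027 for Nap1l4 and from -0.066 to 0.0027 for Osbpl5. The number of neighbours below 0 was between 4 and 7, and the median of the inner genes between -0.48 and 0.019. The cause was not tested. With 81 counts on Kcnq1 and 94 on Slc22a18 over the 6 mice, depth limits what can be said of these genes, and 3 mice per diet limit the rest.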
